A study of Mus musculus with 4 samples.

Results

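Chemokines, interleukins, tumor necrosis factor (TNF) family ligands and their receptors were examined in mouse liver by RNA-Seq, a group of 42 genes among the 7000 listed in the authors' deposited table. Members were chosen by symbol alone, as genes whose name starts with Cxcl, Ccl, Cxcr, Ccr or Il and a digit, or with Tnf. By role, 15 of them encode ligands, 2 encode secreted antagonists, 20 encode receptors or receptor chains, and 5 encode intracellular regulators that carry a TNF name. The libraries came from FVB/N mice without any transgene or knockout, all male and wild-type, which had been placed on a selenium (Se) deficient basal diet at weaning. The 0 Se group (mice 1 and 2) received this diet with 0 ppm of added Se and the 0.1 Se group (mice 4 and 5) received it with 0.1 ppm of Se as sodium selenite, both for 6 weeks, so the controls and the deficient mice shared the basal diet.

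The quantity described for each gene is the authors' mean level over all 4 libraries, deposited as log2 of the mean CPM, that is, of reads counted on a gene after scaling each library to a common size. Of the deposited values used here, 0 columns belong to a single mouse. No level was therefore assigned to a diet, no spread between mice can be given, and the diets are not compared. Depth per library is likewise unknown. To compare genes, each mean CPM was divided by the listed mRNA length in kilobases (CPM per kb), because a long mRNA yields more fragments than a short one at the same number of molecules. Differences between neighboring genes in an order of levels therefore have no error attached, and no test was made between genes. Such an order is taken over both diets and need not hold within either of them. The table is arranged by the authors' p-value and ends at 7000 genes, so it is not a list of all expressed genes. The hepatocyte gene for albumin (Alb), for example, is not on it. A symbol that is missing is simply not listed, and nothing about its level follows.

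Chemokines are small secreted proteins that guide leukocytes along concentration gradients, and they act through receptors that cross the membrane repeatedly and couple to G proteins. Interleukins act through receptor chains that are often shared between several ligands. Many of these recruit Janus kinases and STAT factors, whereas the receptors for interleukin (IL)-1 and TNF lead mainly to NF-kB. In liver, resident macrophages (Kupffer cells), sinusoidal endothelial cells and hepatocytes all take part in this traffic, and signaling through the IL-6 receptor on hepatocytes is best known for inducing acute-phase proteins.

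Among symbols of this pattern in the mouse gene annotation, 42 of 181 (23.2%) were listed. Of the protein-coding symbols of this pattern 23.6% were listed, and of all protein-coding symbols 29.9%. Of the Cxcl genes, 4 of 13 were listed, and of the Ccl genes 3 of 25. Of the Cxcr and Ccr receptor genes, 3 of 18 were listed. The Il symbols contributed 20 of 85, the Tnfrsf receptor symbols 6 of 20, and the Tnfaip symbols 5 of 8. Tnf itself was not listed, and Tnfsf10 was the only listed gene of the 12 that encode TNF or a Tnfsf ligand. Il6 and Ifng, the genes of cytokines that the study measured in serum, were not listed either.

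As a group these mRNAs were of low abundance. The median level was 2.21 CPM per kb for the 42 members and 6.19 CPM per kb for all listed genes, a ratio of 0.357. Of the members, 12 (28.6%) lay above the median of all listed genes. Members with a mean under 2 CPM numbered 9 (21.4%), whereas 7.10% of all listed genes were that low. All members together accounted for 830 CPM, or 0.0830% of the scaled reads. A single receptor chain, Il6st, made up 33.8% of that sum, and the 5 members with the most reads (Il6st, Il13ra1, Ccl9, Il1r1 and Tnfrsf1b) made up 63.8%.

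**Figure D1:**
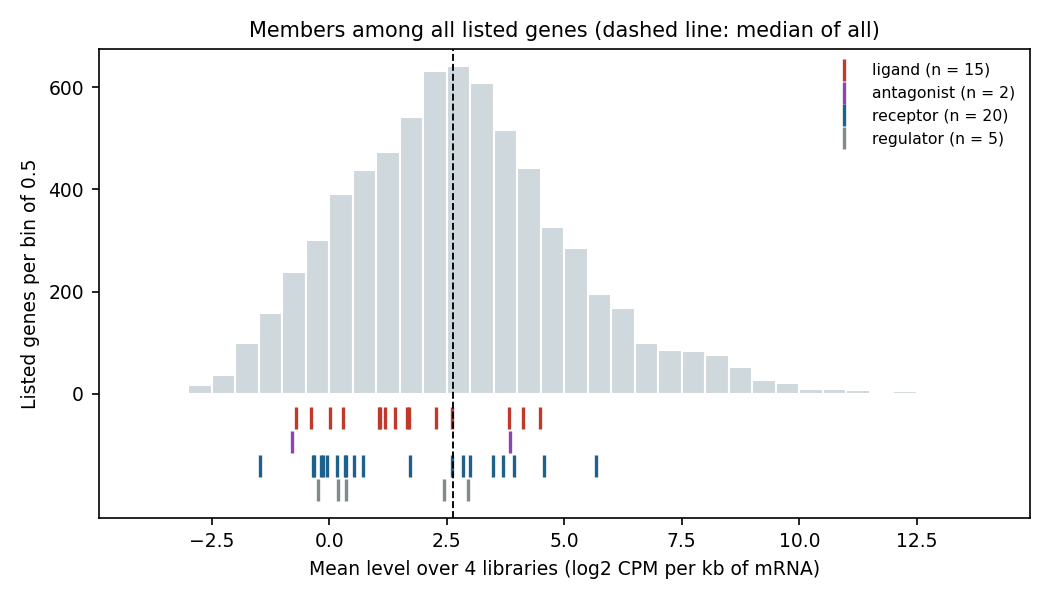
Histogram of the mean level over 4 libraries (log2 CPM per kb of mRNA) for all 7000 listed genes, with 1 tick for each of the 42 members below it, colored by side. The dashed line is the median of all listed genes, and 12 members lie to its right, the farthest being Il6st at 5.69 on this log2 scale.

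Ligands and receptors overlapped widely in level. The 15 ligands ran from 0.614 to 22.4 CPM per kb with a median of 2.64, and the 20 receptors and receptor chains ran from 0.359 to 51.5 with a median of 1.54. The order of these medians depends on the scale and on the genes included. In CPM without division by length the receptor median (7.56 CPM) was above the ligand median (6.13 CPM), the median listed length being 1838 bases for ligands and 3308 bases for receptors. On the log2 scale per kb, with genes under 2 CPM left out, the receptor median (2.16) was again above the ligand median (1.68). Receptors also had the wider range, with 7 of 20 above the median of all listed genes per kb, against 3 of 15 ligands. In CPM the count of receptors stayed at 7 of 20 and that of ligands was 1 of 15.

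**Figure D2:**
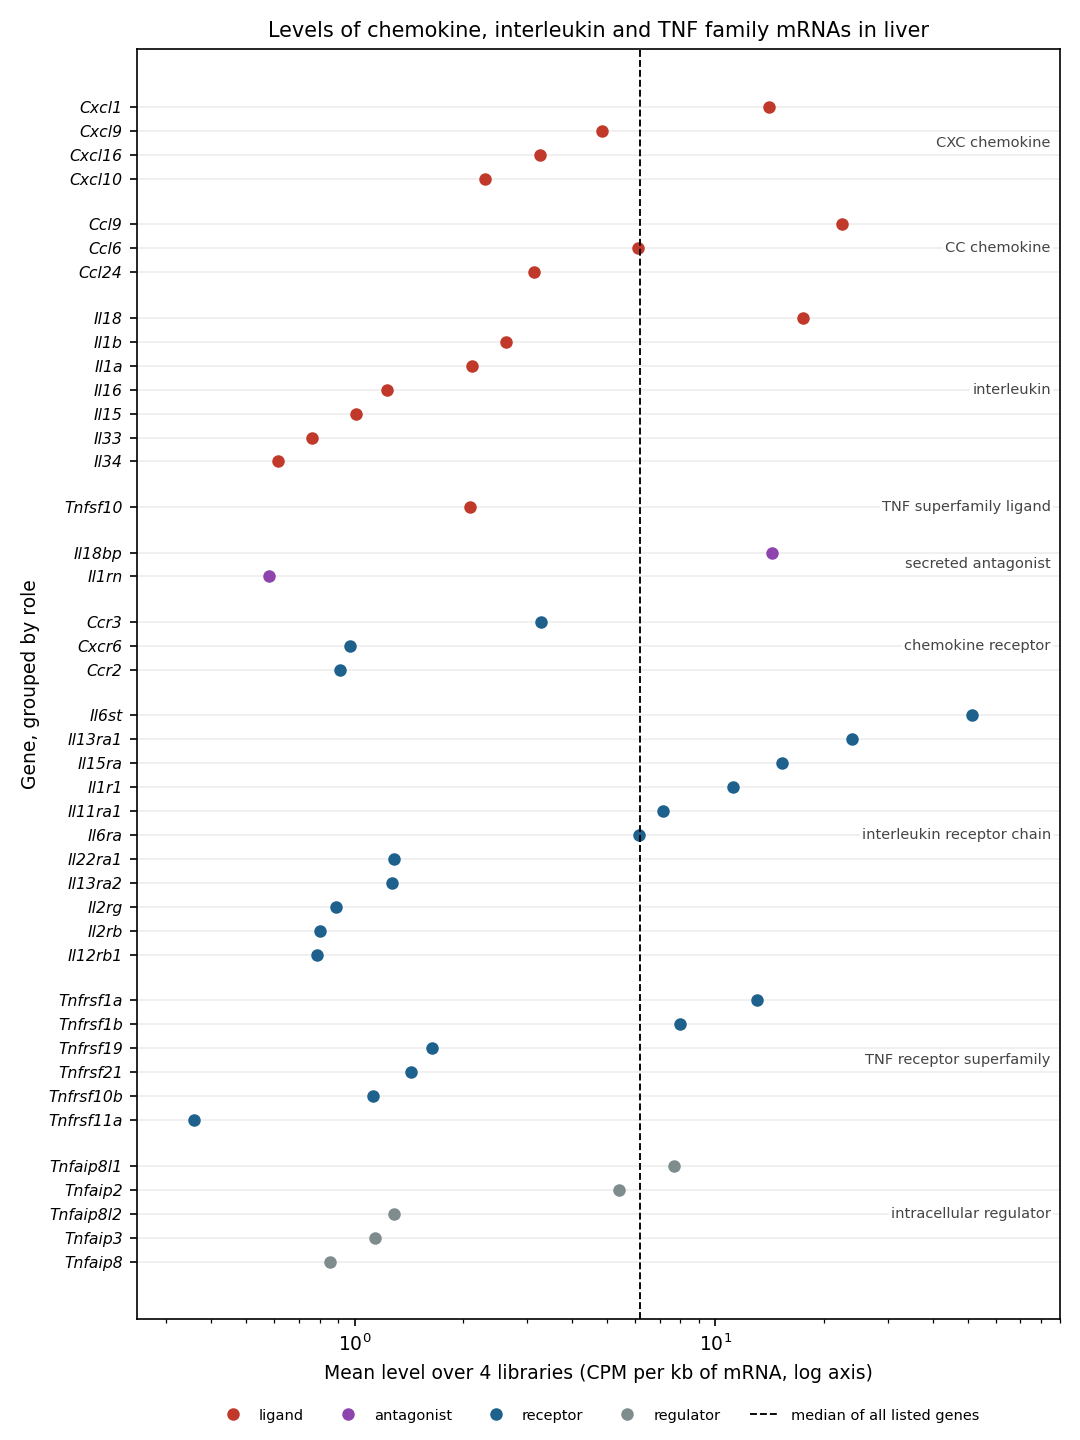
Mean level over 4 libraries (CPM per kb of mRNA, log axis) of each of the 42 members, grouped by role and ordered by level within a role, with the median of all listed genes as a dashed line at 6.19 CPM per kb. Ccl9 leads the ligands at 22.4 CPM per kb and Il6st the receptors at 51.5, and none of the 3 chemokine receptors reaches the dashed line.

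The CXC chemokine ligands listed under a Cxcl symbol were Cxcl1, Cxcl9, Cxcl10 and Cxcl16. Cxcl1, which attracts neutrophils and is the KC/GRO protein of serum cytokine panels, had the highest level of the 4, at 14.1 CPM per kb (13.4 CPM over an mRNA of 949 bases). Cxcl9 and Cxcl10, both inducible by interferon-γ and both ligands of Cxcr3 on activated T cells, were at 4.85 and 2.29 CPM per kb. Cxcl16, a membrane-anchored chemokine that can be shed, was at 3.26 CPM per kb. Ppbp, a CXC chemokine with a symbol outside the rule, was also listed, at 1.28 CPM per kb (1.38 CPM). The order within this class changed with the scale, since Cxcl9 has an mRNA of 2905 bases: in CPM, Cxcl9 (14.1 CPM) and Cxcl1 (13.4 CPM) were nearly level, and per kb Cxcl1 was 2.91 times Cxcl9. Cxcl9 was 2.11 times Cxcl10 per kb and 5.58 times in CPM.

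The gene of Cxcl9 (chromosome 5 of NCBIM37, the same assembly as mm9, from 92750357 to 92757105) is followed by that of Cxcl10 (92775664 to 92777915) after 18.6 kb, and both have 4 exons on the minus strand. Cxcl1 (91320267 to 91322141, plus strand, 4 exons) lies 1428 kb from Cxcl9 on the same chromosome. These are the 3 listed Cxcl genes with a promoter sequence in the reference table. The windows that follow are shown because each promoter holds a match to a short motif of the kind bound by NF-kB, written GGNNTTTCC in either orientation. The promoter sequences are those of RefSeq on GRCm38.p6, from 250 bases before to 50 bases after the annotated start, on the strand of the gene. Capitals mark the 9 matched bases, and flanks of 8 bases are in lower case.

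Cxcl1, chr5:90891167-90891191, plus strand, match 70 bases before the start: gtactccgGGAATTTCCctggcccg

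Cxcl1, chr5:90891148-90891172, plus strand, match in reverse orientation 89 bases before the start: ggttgcagGGAAACACCctgtactc

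Cxcl9, chr5:92328105-92328129, minus strand, match 42 bases before the start: aaggaaaaGGGATTTCCtaaataaa

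Cxcl9, chr5:92328193-92328217, minus strand, match 130 bases before the start: tgagagtaGGGTTTTCCccaggacg

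Cxcl10, chr5:92349031-92349055, minus strand, match in reverse orientation 158 bases before the start: ggggagagGGAAATTCCaagttcat

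A second motif, GAAANNGAA in either orientation, resembles the core of the element bound by interferon-stimulated complexes. It was found in the same promoters of Cxcl9 and Cxcl10 and not in that of Cxcl1, at the positions shown here.

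Cxcl9, chr5:92328238-92328262, minus strand, match 175 bases before the start: gtttatgtGAAATGGAAgtagaaca

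Cxcl10, chr5:92349086-92349110, minus strand, match 213 bases before the start: acgctttgGAAAGTGAAacttacct

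Promoter sequences were found for 34 of the 42 members, as 44 promoters, and for all genes as 32851 promoters. The motif GGNNTTTCC was present in 10 of the 44 (22.7%) and in 5.82% of all promoters, in 9 genes (Ccl9, Ccr3, Cxcl1, Cxcl10, Cxcl9, Il16, Il1rn, Tnfaip2 and Tnfaip3). Both promoters of Il1rn hold the same genomic match, which is therefore counted in each. GAAANNGAA was present in 6 of the 44 (13.6%) and in 8.56% of all promoters, in Ccr2, Cxcl10, Cxcl9, Il15ra and Tnfrsf1b. TTCNNNGAA, which reads the same on both strands and resembles the site of STAT dimers, was present in 3 of the 44 (6.82%) and in 8.30% of all promoters, in Tnfrsf19, Tnfrsf1a and Tnfrsf1b. A match is a description of the letters in this window, the shares were not tested, and alternative promoters of 1 gene are not independent.

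The CC chemokine ligands listed were Ccl9, Ccl6 and Ccl24. Ccl9, a chemokine of macrophages and other myeloid cells that acts on Ccr1, was the most abundant ligand of the whole group, at 22.4 CPM per kb (67.4 CPM over 3008 bases), and 3rd of the 42 members both per kb and in CPM. Ccl6, also a ligand of Ccr1, was at 6.10 CPM per kb, so that Ccl9 was 3.67 times Ccl6. Their genes are neighbors on the minus strand of chromosome 11 of NCBIM37, Ccl9 from 83386421 to 83392138 and Ccl6 from 83401384 to 83406589, with a gap of 9.24 kb. Ccl24, an eosinophil attractant also known as eotaxin-2, was at 3.13 CPM per kb.

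The interleukin ligands had low levels apart from Il18. Il18, whose product is made as a precursor and released after cleavage by caspase-1, was at 17.5 CPM per kb and ranked 4th of the 42 members. Its mRNA of 866 bases is the shortest of the group, and in CPM (15.2) it ranked 12th. Il1b and Il1a, the agonists of the IL-1 receptor, were at 2.64 and 2.12 CPM per kb. Il16, which encodes a CD4 ligand, was at 1.23 CPM per kb, a value that is uncertain because 22.3% of its 50-base stretches are shared with the annotated gene Stard5 (1.58 CPM per kilobase of unshared sequence). Il15, a growth factor of natural killer and memory T cells, was at 1.01 CPM per kb. Il33, a nuclear alarmin, was at 0.763, and Il34, an alternative ligand of the colony stimulating factor 1 receptor, was the lowest of the 15 ligands at 0.614. Il18 was 28.5 times Il34 on the listed lengths, 34.3 times on the annotated ones, where Il18 has 702 bases, and 13.4 times in CPM.

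Tnfsf10 encodes TRAIL, a ligand that can trigger apoptosis. It was at 2.10 CPM per kb, and at 10.4 CPM it ranked 17th by reads and 23rd per kb because its listed mRNA is long, at 4944 bases.

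The 2 secreted antagonists stood at opposite ends of the range. Il18bp, which binds IL-18 and keeps it from its receptor, was at 14.4 CPM per kb and ranked 6th of the 42. It was near its target, since Il18 was 1.22 times Il18bp per kb, and in CPM Il18bp (20.2) exceeded Il18 (15.2). Il1rn, the IL-1 receptor antagonist, was at 0.579 CPM per kb and ranked 41st, and both agonists of the same receptor were above it.

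The listed chains of the IL-6 family receptors were Il6st, Il6ra and Il11ra1. Il6st, which encodes gp130, the signaling chain shared by IL-6, IL-11 and related cytokines, was at 51.5 CPM per kb (281 CPM over 5452 bases), the highest level of the group and 767th among the 7000 listed genes. Il6ra, the chain that binds IL-6, was at 6.12 CPM per kb, so that Il6st was 8.41 times Il6ra (13.7 times in CPM). Il11ra1, the chain that binds IL-11, was at 7.18 CPM per kb, which leaves Il6st at 7.17 times Il11ra1 (21.2 times in CPM). The value of Il11ra1 is uncertain, because 50.9% of the 50-base stretches of its mRNA also occur in Il11ra2 or related genes of the GENCODE vM1 annotation, and only reads aligned to a unique place were counted. If the shared stretches yielded no counted reads, its level would be 14.6 CPM per kilobase of unshared sequence, and Il6st would be 3.52 times Il11ra1.

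Il13ra1, a chain that binds IL-13 and also forms a receptor for IL-4, was at 23.9 CPM per kb and ranked 2nd of the members. Il13ra2, which binds IL-13 with high affinity and is often described as a decoy, was at 1.27 CPM per kb. Il13ra1 was 18.8 times Il13ra2 per kb and 45.1 times in CPM. These genes lie far apart on chromosome X. Il1r1, the signaling receptor of IL-1, was at 11.2 CPM per kb (53.8 CPM). This was 19.3 times the level of its antagonist gene Il1rn per kb and 37.4 times in CPM. Il22ra1, the chain through which IL-22 acts on epithelial cells and hepatocytes, was at 1.29 CPM per kb of its listed length (5825 bases). The same reads divided by the length of the nearest annotated transcript (2569 bases) give 2.92. Which part of the listed mRNA they came from is unknown.

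The chains of the IL-15 and IL-2 receptors differed in level. Il15ra, which binds IL-15 and presents it to neighboring cells, was at 15.3 CPM per kb and ranked 5th. Il2rb and Il2rg, the signaling chains that lymphocytes use for IL-2 and IL-15, were at 0.804 and 0.889 CPM per kb. Il15ra was therefore 19.0 times Il2rb and 17.2 times Il2rg, and Il2rg was 1.11 times Il2rb per kb but lower in CPM (1.43 against 2.17). For Il2rg, 42.0% of the 50-base stretches are shared with the annotated gene Gm20489. If those stretches yielded no counted reads, Il2rg would be at 1.53 CPM per kilobase of unshared sequence, with Il15ra 9.99 times Il2rg. Whether Gm20489 was in the authors' reference was not checked. Il12rb1, a receptor chain of IL-12 and IL-23 on lymphocytes, was at 0.789 CPM per kb.

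The chemokine receptors listed under a Ccr or Cxcr symbol with a digit were Ccr3, Cxcr6 and Ccr2, all on chromosome 9 of NCBIM37. Related receptors with symbols outside the rule were also listed. These were Cmklr1 at 1.45, Ccbp2 at 0.740, Ccrl1 at 0.689 and Ccrl2 at 0.683 CPM per kb. Ccr3, the eotaxin receptor, was at 3.28 CPM per kb (10.7 CPM). Cxcr6, found on natural killer T cells and other liver lymphocytes, was at 0.974, and Ccr2, the receptor of inflammatory monocytes, was at 0.910. Ccr3 was 3.37 times Cxcr6 and 3.61 times Ccr2 per kb. The gene of Ccr3 (123936703 to 123946421) lies 70.3 kb from that of Ccr2 (124016689 to 124028296) and 216 kb from that of Cxcr6.

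Of the 6 listed Tnfrsf genes, the receptors of TNF itself were the most abundant. Fas and Ngfr, receptors of the TNF receptor superfamily with symbols outside the rule, were listed at 17.5 and 1.14 CPM per kb. Tnfrsf1a, which carries a death domain, was at 13.0 CPM per kb, and Tnfrsf1b, which lacks one, was at 7.95. Tnfrsf1a was thus 1.63 times Tnfrsf1b per kb, but in CPM it was lower (28.0 against 39.1), the mRNA of Tnfrsf1b being listed with 4913 bases and that of Tnfrsf1a with 2155. The 4 other Tnfrsf genes were below 2 CPM per kb. Tnfrsf19 was at 1.64, Tnfrsf21, the death receptor DR6, at 1.43, and Tnfrsf10b, the mouse TRAIL receptor, at 1.12 CPM per kb. Tnfrsf11a, which encodes RANK, was at 0.359 and was the lowest of all 42 members.

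**Figure D3:**
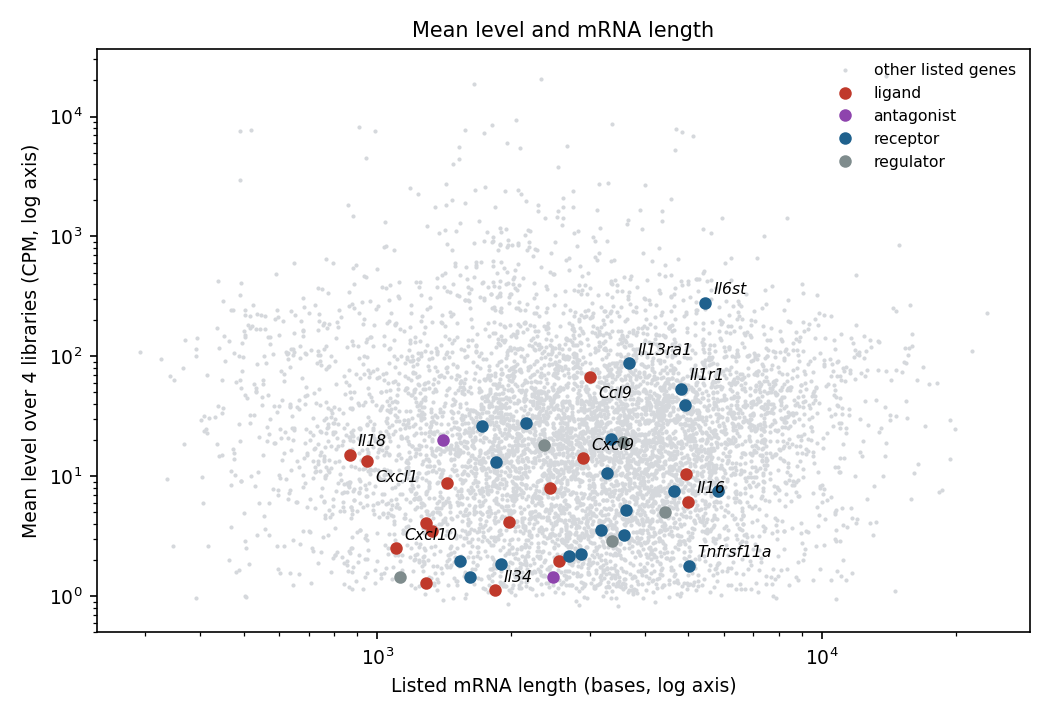
Mean level over 4 libraries (CPM, log axis) against listed mRNA length (bases, log axis) for all listed genes in grey and the members in color. Il18 and Cxcl1 sit at the short end (866 and 949 bases), Il6st at 281 CPM is the highest member, and Il34 at 1.13 CPM is the lowest.

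Intracellular regulators whose symbol starts with Tnfaip, for TNF-induced protein, were the remaining 5 members. Tnfaip8l1 was at 7.70 CPM per kb and was the only one of the 5 above the median of all listed genes per kb. Tnfaip2 was at 5.40, and in CPM it was Tnfaip2 (19.3) and not Tnfaip8l1 (18.2) that exceeded the median of all listed genes (18.7). Tnfaip8l2, a negative regulator of immune signaling also known as TIPE2, was at 1.28, and Tnfaip3, the ubiquitin-editing enzyme A20 that limits NF-kB, was at 1.14. Tnfaip8 was at 0.853 CPM per kb of its listed length (3368 bases). The same reads divided by the length of the nearest annotated transcript (1834 bases) give 1.57, above Tnfaip8l2 and Tnfaip3. Tnfaip8l1 was 9.02 times Tnfaip8 on the listed lengths and 4.88 times on the annotated ones, and 5.99 times Tnfaip8l2 on the listed lengths.

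Ligands were then set beside their receptors, using 26 textbook pairs of a member with its partner. In 9 of the pairs both genes were listed, in 7 only the ligand was listed, and in 10 only the receptor. Of the 9, the receptor gene was the higher in 5 per kb, in 7 in CPM, in 6 per kilobase of unshared sequence, and in 7 per kilobase of the nearest annotated transcript. The gap was widest for Il34 and Csf1r, the latter at 19.1 CPM per kb or 31.1 times the ligand, and 65.6 times in CPM. Next came Il15 and Il15ra, with a ratio of 15.2 on the listed lengths, 23.3 on the annotated ones and 20.3 in CPM. Il1r1 was 5.27 times Il1a and 4.24 times Il1b per kb, and 12.8 and 15.4 times in CPM. Ccr3 was 1.05 times Ccl24 per kb and 2.66 times in CPM. Ligand genes were the higher for Cxcl16 over Cxcr6 (3.35 times), Tnfsf10 over Tnfrsf10b (1.87 times), and Il15 over Il2rb (1.26 times) and Il2rg (1.14 times). Both Il15 pairs turned in CPM, with Il15 at 1.30, Il2rb at 2.17 and Il2rg at 1.43 CPM, and the pair with Il2rg also turned per kilobase of unshared sequence (1.53 CPM for Il2rg against 1.01 for Il15). Both turned again when the same reads were divided by annotated transcript lengths. That of Il15 is 1863 bases against 1285 listed, which gives Il15 0.696 CPM per kb, with Il2rb at 0.806 and Il2rg at 0.858. Cxcl16 shares 19.0% of its 50-base stretches with the annotated gene Zmynd15, so its level is uncertain as well. For Cxcl9 and Cxcl10 the receptor Cxcr3 was not listed, nor was Ccr1 for Ccl6 and Ccl9, or Il18r1 for Il18. In the other direction, the listed receptors Tnfrsf1a, Tnfrsf1b, Il6ra, Il13ra1 and Il22ra1 were paired with ligands that were not listed (Tnf, Il6, Il13 and Il22).

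**Figure D4:**
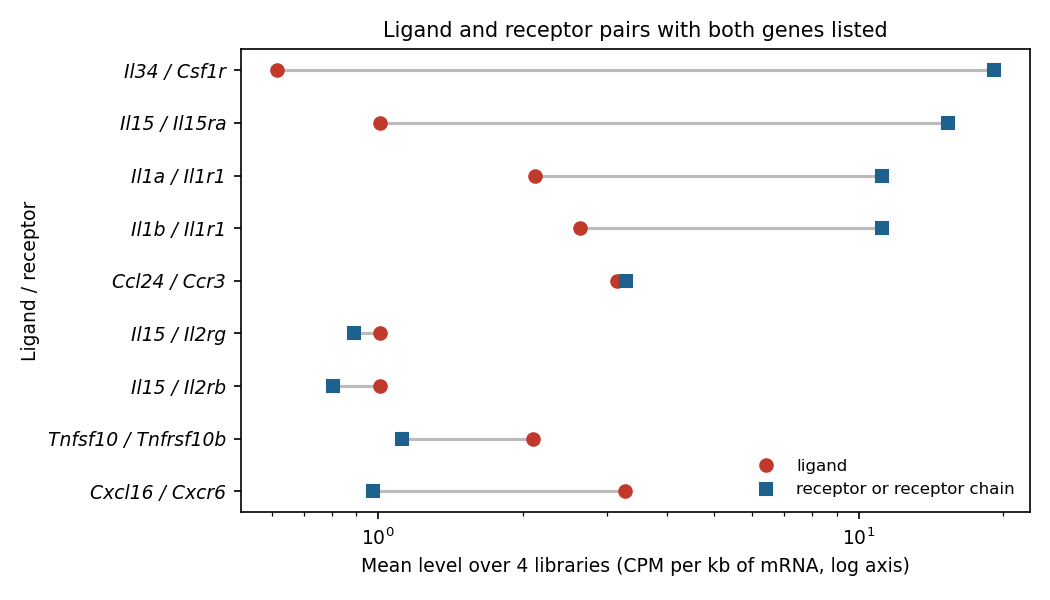
Mean level over 4 libraries (CPM per kb of mRNA, log axis) of ligand genes (circles) and receptor genes (squares) for the 9 pairs in which both were listed, joined by a line. The receptor is the higher in the 5 upper pairs, by up to 31.1 times per kb for Il34 and Csf1r (65.6 times in CPM). The ligand is the higher in the 4 lower pairs. Of these, the Il15 pairs with Il2rb and Il2rg turn in CPM and on annotated transcript lengths. The pair with Il2rg also turns per kilobase of unshared sequence.

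These levels come from whole liver, in which fewer cells of a type and less RNA per cell cannot be told apart. The hepatocyte markers that were listed were among the most abundant mRNAs, with Apoa1 at 7619, Cyp2e1 at 4180 and Serpina1a at 1230 CPM per kb, the other 3 of 6 markers (Alb, Cps1 and Ttr) being unlisted. Kupffer cell and macrophage markers were listed for 7 of 8, from 5.15 for Marco to 74.8 for Clec4f, with a summed level of 516 CPM. Sinusoidal endothelial markers were listed for 4 of 6 (385 CPM in sum) and stellate cell markers for 6 of 6 (364 CPM in sum). Of the T and natural killer cell markers 1 of 6 was listed, Gzma at 1.31 CPM per kb, and of the neutrophil markers 2 of 5, S100a9 at 3.41 and S100a8 at 2.48. None of the 4 B cell and none of the 4 cholangiocyte markers was listed. Which cells made each member's mRNA was not tested.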

How the data were processed

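Liver RNA of 4 mice, 2 per diet, was depleted of ribosomal RNA and sequenced in 50-cycle single-end runs. The authors aligned reads with Bowtie to RefSeq mRNAs of mm9 reduced to the longest isoform of each gene, kept unique alignments with up to 2 mismatches, and used edgeR on genes above 1 CPM in at least 3 samples. Neither the tools' versions nor the normalization factors were stated in the sources used here. The deposited table holds an mRNA length, the log2 mean CPM over all libraries as edgeR gives it, and the authors' fold changes, p-values and FDR for the diets, which are their findings and were not used. Counts per mouse were not analysed here, so the edgeR test, normalization alternatives and omission of each mouse that had been planned were not run.

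The log2 values were turned into CPM and divided by length in kilobases. Every member is named, ligands and receptors apart. Emr1 and Adgre1 of the marker list are 1 gene and were counted once. The symbol rule for members, which uses no measured value, and the gene lists were set with earlier results of these data known. Positions and exon numbers come from GENCODE vM1 on NCBIM37 (mm9), and all 42 members matched by symbol, and for 36 of these some transcript came within 10% of the length in the file, the exceptions being Cxcl16, Il15, Il18, Il22ra1, Tnfaip8 and Tnfrsf1b. Shared sequence is the share of 50-base stretches of that transcript found exactly in a protein-coding transcript of another gene, on either strand. Whether those other genes were in the authors' RefSeq reference was not checked. Their alignment also allowed 2 mismatches, which exact matches do not cover. This search and the motif search were tested on simulated sequences. Python 3.11.15, numpy 2.4.6, pandas 2.3.3 and matplotlib 3.10.9 were used.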

Additional observations from a re-analysis of the deposited data

How the results depend on the processing

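No paired analysis was possible because the deposited levels are means over all mice and the diets share no mouse number. Omission of single mice and other count normalizations were not run, because counts per mouse were not analysed here. The median log2 level per kilobase was 1.14 for members, 1.40 for ligands and 0.62 for receptors. Without division by length (log2 CPM) these medians were 2.76, 2.62 and 2.92, so that receptors came above ligands. With genes under 2 CPM left out (33 members remaining) they were 1.71, 1.68 and 2.16, and receptors again came above ligands, although 4 of 20 receptors and 3 of 15 ligands were removed; the cause was not tested. Dividing by length less 1 read gave 1.19, 1.45 and 0.63. Without the intracellular regulators the median of members was 1.20. With length restricted to unshared sequence, an alternative chosen after the data were seen, the receptor median was 0.66. With the length of the nearest annotated transcript, also chosen after the data were seen, the medians of members, ligands and receptors were 1.29, 1.37 and 1.13. Reads had been counted on the listed mRNAs, so this alternative changes the divisor only. The number of members above the median of all listed genes ran from 10 to 12 over these alternatives, and 8 to 10 of the 10 members with the highest level stayed among the first 10. For unshared and annotated lengths only the members were rescaled. The median of all listed genes stayed on the listed lengths, so the count under these settings compares unlike scales. Of 33 ratios between genes that were examined, 23 moved by over 1.5 times in CPM, by up to 3.62 times, and 7 turned (Il2rg over Il2rb, Tnfrsf1a over Tnfrsf1b, Il18 over Il18bp, Il1b over Il1a, Cxcl1 over Cxcl9, and Il15 over Il2rb and Il2rg). On annotated lengths 2 moved by over 1.5 times (Tnfaip8l1 over Tnfaip8 and Il15ra over Il15) and 2 turned (Il15 over Il2rb and Il2rg), and on unshared lengths 4 moved by over 1.5 times and 1 turned (Il15 over Il2rg). Depth per library is unknown, and so is the precision of levels near 1 CPM.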

Other observations

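Genes outside the symbol rule that act with these ligands and receptors were counted from lists written from general knowledge, and 11 of the 45 that were listed lay below the members' median of 2.21 CPM per kb. Of 32 genes of NF-kB and death signaling, 17 were listed, with a median of 8.70 CPM per kb, from 1.45 for Traf5 to 61.9 for Chuk, a kinase of the IkB kinase complex. Ikbkb, the other catalytic subunit, was at 8.70, and the NF-kB subunit Rela was at 8.51. Of 20 genes of JAK-STAT signaling, 13 were listed, with a median of 7.14 CPM per kb. Stat3, the main STAT downstream of gp130, was at 23.9, and Stat6, which acts downstream of IL-4 and IL-13 receptors, was at 17.0, whereas the feedback inhibitor Socs3 was at 2.63.

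A list of ligands and receptors with other names, which also holds the proteases Adam17 and Casp1, had 15 of 42 genes listed, with a median of 3.11 CPM per kb, or 1.45 for the 13 without these proteases, of which 7 lay below the members' median. Its levels ran from 0.683 CPM per kb for Ccrl2 to 127 for Cd74, the invariant chain that also serves as a receptor of MIF. Mif itself was at 114 CPM per kb. Both chains of the interferon-γ receptor, Ifngr1 and Ifngr2, were listed, at 10.3 and 8.98 CPM per kb. Adam17, the protease that releases TNF and sheds the IL-6 receptor, was at 8.43, and Casp1, which matures IL-18 and IL-1β, was at 3.11. The lists describe levels only.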
